A study of Mus musculus with 6 samples.

Results

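The primary cilium genes examined here encode the machinery that builds and sorts cargo into the primary cilium: intraflagellar transport (IFT) subunits, the dynein-2 motor, the BBSome, the transition zone and a few partners. Members were chosen by gene symbol, from IFT, Bbs, dynein-2, tectonic, B9-domain, nephrocystin and Tubby-like names together with Mks1, Tmem67, Arl13b, Arl6, Rpgrip1l, Ofd1, Cc2d2a, Cep290, Ahi1, Evc, Evc2 and Sufu. A member needed a probe set that the platform table pairs with that symbol alone, and 42 of 18193 genes met this. Arl13b, Arl6, Rpgrip1l and Tulp4 had no such probe set in the table used and are not analysed here. For each gene the probe set of highest mean log2 intensity across the 6 arrays was used. That mean level is therefore part of the choice and is only described, whereas the difference between genotypes played no part in it.

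RNA came from fluorescent cells sorted from the hindbrains of whole E10.5 mouse litters. In the swap group (n = 3 arrays) the Hoxb1 locus made another Hox protein, a paralog of Hox-B1, and an IRES-tauGFP reporter. In the control group (n = 3 arrays) the same locus carried the same reporter and made normal Hox-B1 protein. Both genotypes thus carried the tagged locus, the cells were those in which that locus was active, and each array held a pool of embryos; strain and zygosity are not given in the labels. The labelled tissue is rhombomere 4, the hindbrain segment that gives rise to facial branchiomotor neurons. The comparison asks which transcripts depend on which of these Hox proteins the locus makes.

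A primary cilium is a single, non-motile, microtubule-based projection that most neural progenitors and many neurons carry. The IFT-B complex rides with kinesin-2 towards the tip, the IFT-A complex and dynein-2 bring cargo back, and the BBSome helps membrane proteins leave. The transition zone at the base gates what enters. In the neural tube, vertebrate Hedgehog signalling passes through the cilium, so loss of some of these genes disturbs ventral cell types.

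The median intensity per array ran from 118 to 139, and the small number of arrays, 3 per genotype, limits the precision. The arrays carried RNA of neurons, motor neurons and dividing progenitors at high intensities in both genotypes. Isl1, which marks motor neurons, had log2 intensities of 14.03, 13.75 and 13.74 in swap arrays 1, 2 and 3 and of 13.63, 13.73 and 13.77 in the control arrays. Vim, an intermediate filament gene of progenitors, averaged 14.21 ± 0.05 in swap and 14.20 ± 0.11 in control arrays (SD, n = 3 each). Summed over 10 macrophage markers, intensity ranged from 2953 to 5506 in the swap arrays and from 775 to 18965 in the control arrays. Swap array 1 had the highest ratio of 3′ to 5′ signal, at a log2 value of 1.93 for Gapdh, against 1.23 and 1.35 in the other swap arrays and 1.28 to 1.41 in the control arrays (two-sided exact permutation p = 0.8 between genotypes, where the smallest possible p is 0.1).

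Many cilium genes are known to be controlled by RFX transcription factors, which bind an inverted repeat called the X-box close to the start site. The promoter windows of the members were therefore searched for its letters, as a property that the choice of members did not use. The motif was GTNNCC, then 0 to 3 bases, then NGNAAC, on both strands, and because it is nearly its own reverse complement a site can match on both. RefSeq promoter windows of build GRCm38.p6, which run from 250 bases before to 50 bases after the start site, were at hand for 37 of the 42 genes. Of these 37, 13 (35.1%) held at least 1 match, against 1606 of 27025 genes (5.94%) over all promoters of the same length. The match was present in 6 of 9 MKS and tectonic genes (Ahi1, B9d2, Mks1, Tctn1, Tctn2 and Tctn3), 3 of 6 BBSome genes (Bbs1, Bbs4 and Bbs7), 3 of 9 IFT-B genes (Ift22, Ift57 and Ift74) and Nphp4. These are matches of letters, not measured binding, and a window without a match says only that these letters are not in it.

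In 7 of the 13 genes a match lay before the start site. One site of each is shown, 5′ to 3′ on the strand named after it, to let the repeats be compared; capitals mark the matched letters.
Ift22: tgttcccgGTCGCCGTGGAAACtgaccagc
Ift57: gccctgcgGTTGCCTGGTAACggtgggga
Bbs7: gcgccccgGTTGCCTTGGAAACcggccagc
Mks1: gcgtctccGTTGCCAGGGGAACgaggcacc
Tctn2: gaggaccaGTAGCCATGGTAACctccaatc
Tctn3: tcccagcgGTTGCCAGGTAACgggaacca
Nphp4: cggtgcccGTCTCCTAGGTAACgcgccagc

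The Ift22 site is at chr5:136908109-136908138 on the plus strand, centred at position -26 from the start site, and the Ift57 site at chr16:49699226-49699254 on the plus strand, at -54. The Mks1 site is at chr11:87853183-87853212 on the plus strand, at -17, and the Nphp4 site at chr4:152477903-152477932 on the plus strand, at -224. The sites of Bbs7, Tctn2 and Tctn3 read on the minus strand, Bbs7 at chr3:36613489-36613518 (position -114), Tctn2 at chr5:124598679-124598708 (position -55) and Tctn3 at chr19:40612351-40612379 (position -134). In Ift57 and Tctn3 the gap between the repeats was 1 base, and in the other five 2 bases. The RFX genes themselves were on the arrays in both genotypes. Rfx3, an RFX factor of ciliated cells, stood at 12.21 ± 0.04 in swap and 12.09 ± 0.23 in control arrays, and Rfx4, an RFX factor of the neural tube, at 10.29 ± 0.13 in swap and 10.35 ± 0.45 in control arrays (log2 intensity, SD, n = 3 each).

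None of the 42 cilium genes passed the test between genotypes. Of the 42 genes 37 had a mean at or above the median of all probe sets, a log2 intensity of 6.83, as did 11168 of all 18193 genes read the same way. The 5 below it were Bbs10, Tmem67, Evc, Tulp1 and Tulp2. limma called 0 of 42 at an adjusted p under 0.05, beside 0% of 45037 probe sets (4.57% at an unadjusted p under 0.05), and the smallest adjusted p among the members was 1.00. Without adjustment 3 of 42 (7.14%) had a p under 0.05, Ift27 higher and Ift46 and B9d1 lower in the swap arrays, beside 3.63% of all genes (1.69% higher and 1.94% lower). All 3 were among the 37 at or above the median level, where 1.26% of all genes did so. The log2 differences, swap minus control, ran from -0.73 to 1.56 with 20 above 0 and 22 below, and their median was -0.02, against 0.01 over all genes. For 24 of the 42 genes (57.1%) the difference had a 95% interval inside 2-fold, beside 43.4% of all genes; at or above the median level it was 23 of 37, beside 68.1%. In RNA of a sorted population, fewer cells of a type and less RNA per cell cannot be told apart.

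**Figure D1:**
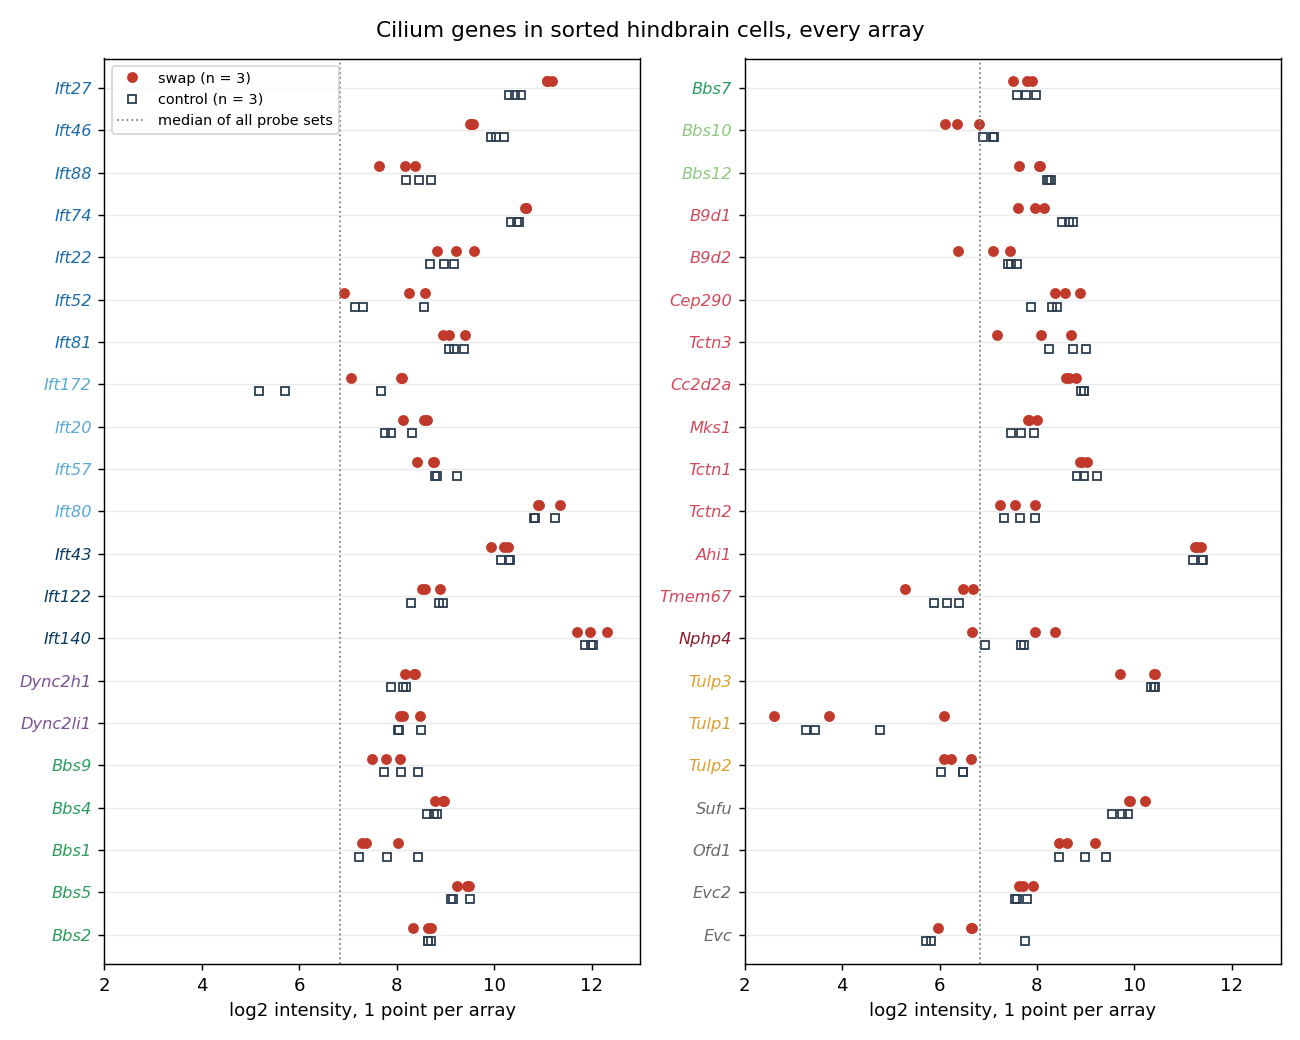
Log2 intensity of the 42 cilium genes on each array, with swap arrays as filled red circles above control arrays as open squares; gene names are coloured by role and the dotted line is the median of all probe sets, 6.83. Most genes have overlapping groups to the right of the line, and Ift172, Evc and Tulp1 spread widest within a genotype.

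In 9 of the 42 genes (21.4%) all 3 swap arrays lay on one side of all 3 control arrays, beside 8.85% of all genes. At or above the median level the share of all genes was 8.19%. They were higher in swap for Ift27, Ift74 and Sufu, and lower for Ift46, Ift57, Bbs10, Bbs12, B9d1 and Cc2d2a. The shares over all genes were 4.3% higher and 4.55% lower. No test of this share was made, since the members were chosen with earlier results of these arrays known, and the 9 genes comprise 4 of IFT-B, 2 chaperonin-like, 2 of the transition zone and Sufu. With quantile normalization the number was 10, and with median centring 8.

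**Figure D2:**
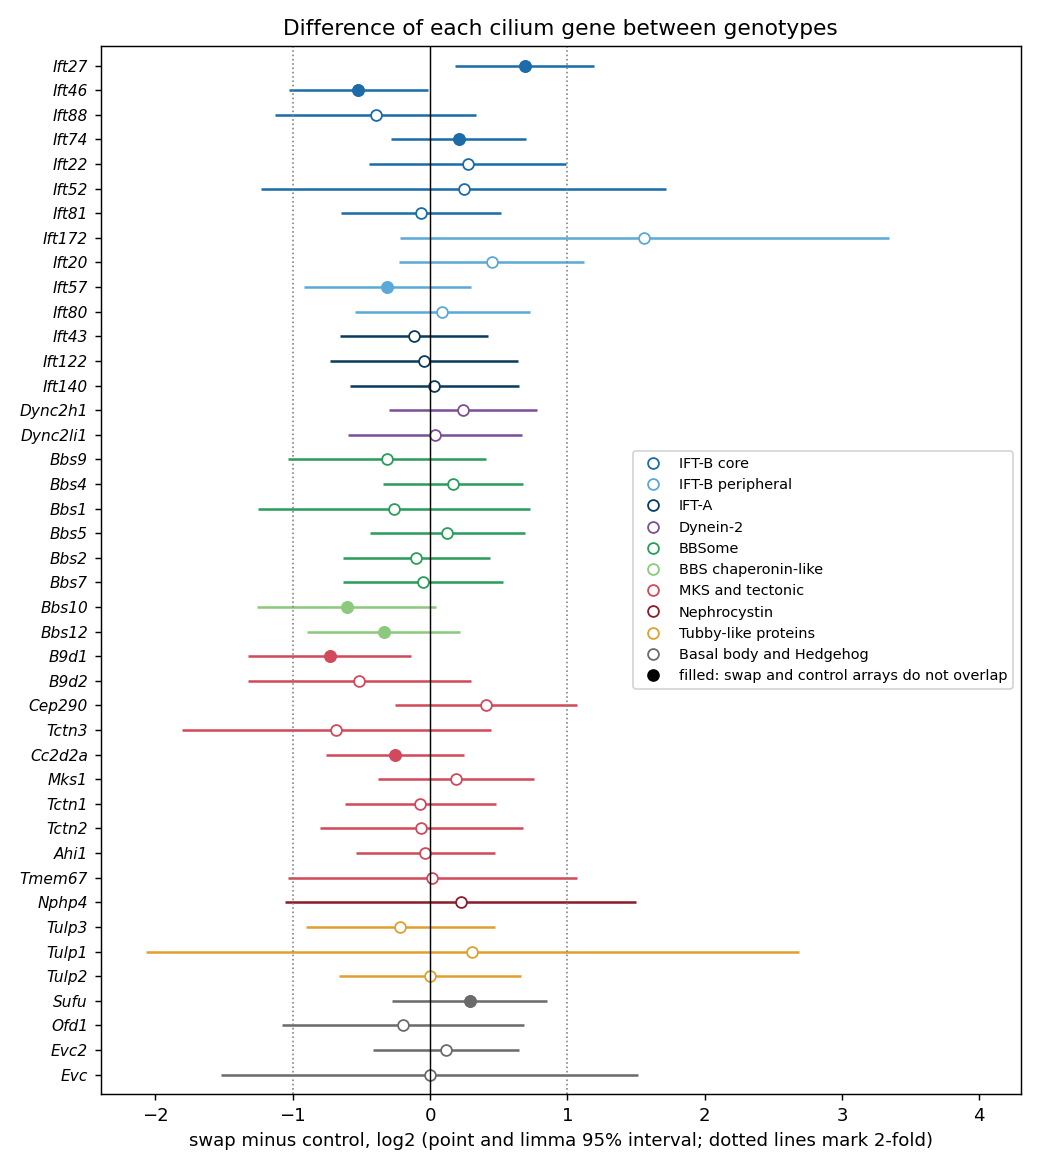
Swap minus control difference of each cilium gene on the log2 scale, with its 95% interval from limma, coloured by role; filled points are the 9 genes whose swap and control arrays do not overlap, and dotted lines mark 2-fold. The intervals of 3 genes, Ift27, Ift46 and B9d1, leave out 0 before adjustment.

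The IFT-B complex, the anterograde train, held 11 of the members, 7 of them above 0 and 4 below, with a median difference of 0.21 and 0 called. Ift27 encodes a Rab-like GTPase of the train that is known to link it to BBSome export. Its log2 intensity was 11.09, 11.08 and 11.19 in swap arrays 1, 2 and 3, against 10.56, 10.43 and 10.30 in control arrays 1, 2 and 3. Every swap array lay above every control array. The difference was 0.69 (SE 0.21, 95% interval 0.18 to 1.20, 1.61-fold), with an unadjusted p of 0.0166 and an adjusted p of 1.00 in limma. Leaving out any array, or both arrays numbered 1, gave 0.62 to 0.77.

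Ift27 was read by 3 probe sets, and the groups did not overlap in any of them. The other probe sets gave differences of 0.83 (unadjusted p = 0.0105, adjusted p = 0.917 in limma) and 0.81 (unadjusted p = 0.0464, adjusted p = 1.00 in limma). The probe set with the lowest mean read 8.99, 8.76 and 8.72 in the swap arrays, against 8.52, 7.52 and 8.02 in the control arrays. The 2 brighter probe sets bear the suffix x_at, which the manufacturer gives where probes may also match other transcripts, and the dimmest does not. The 3 probe sets share the same RNA samples and are not replicates.

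Ift46, which encodes a core subunit known from Chlamydomonas to carry outer dynein arms into the flagellum, lay the other way. Its log2 intensity was 9.53, 9.51 and 9.56 in swap arrays 1, 2 and 3, against 10.04, 9.94 and 10.19 in the control arrays, without overlap. The difference was -0.52 (SE 0.20, 95% interval -1.03 to -0.02; unadjusted p = 0.0445, adjusted p = 1.00 in limma), and it ran from -0.58 to -0.46 with 1 array left out.

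Ift74, whose protein pairs with Ift81 to bind tubulin, was the steadiest member within a genotype. It read 10.65, 10.66 and 10.63 in the swap arrays, against 10.52, 10.34 and 10.46 in the control arrays. The groups did not overlap, yet the difference was only 0.21 (SE 0.20, unadjusted p = 0.341 in limma). Its partner Ift81 differed by -0.07, with a 95% interval of -0.65 to 0.52. Ift88, the Polaris subunit without which cilia fail to form in mice, read 7.63, 8.18 and 8.37 in the swap arrays, against 8.20, 8.47 and 8.71 in the control arrays. Its groups overlapped, and the difference of -0.40 (SE 0.30) was -0.18 without swap array 1.

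Ift22, a further Rab-like subunit, differed by 0.27, but by -0.05 without both arrays numbered 1. Ift52, a scaffold of the core, ranged from 6.92 to 8.57 in the swap arrays and from 7.14 to 8.56 in the control arrays, with a difference of 0.24 that was -0.08 without swap array 1.

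In the peripheral part of IFT-B the widest difference of all members belonged to Ift172, a subunit known for the turnaround of trains at the tip. It read 8.08, 8.11 and 7.06 in the swap arrays, against 7.67, 5.71 and 5.18 in the control arrays. Control array 1 lay above swap array 3, so the groups overlapped, and the other 2 control arrays lay far below. The difference was 1.56 (SE 0.72, 95% interval -0.22 to 3.34; unadjusted p = 0.0752, adjusted p = 1.00 in limma), and it ran from 1.06 without control array 3 to 2.30 without control array 1.

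Ift20, which also resides at the Golgi and helps bring membrane cargo to the cilium, read 8.62, 8.12 and 8.57 in the swap arrays, against 7.89, 7.76 and 8.32 in the control arrays. Control array 3 lay within the swap range, and the difference was 0.45 (SE 0.27). Ift57 read 8.42, 8.76 and 8.75 in the swap arrays, against 9.24, 8.83 and 8.79 in the control arrays, a difference of -0.31 (SE 0.25). The Ift57 groups missed each other by a narrow margin, and without both arrays numbered 1 the difference was -0.06. Its dimmer probe set gave 0.55 (SE 0.52), and the mean of both gave 0.12. Ift80, a subunit known from a human skeletal ciliopathy, differed by 0.09.

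The IFT-A complex, which carries retrograde cargo and brings membrane receptors into the cilium, was read by 3 members. Ift43 read 10.20, 9.94 and 10.29 in the swap arrays, against 10.30, 10.33 and 10.15 in the control arrays (difference -0.12). Ift122 read 8.90, 8.57 and 8.51 in swap, against 8.86, 8.96 and 8.30 in control arrays (difference -0.05). Ift140 read 12.31, 11.98 and 11.69 in swap, against 12.03, 11.99 and 11.87 in control arrays (difference 0.03). The groups overlapped in each, and each 95% interval lay within 2-fold, the widest running from -0.73 to 0.64 for Ift122. A dimmer probe set of Ift122, below the median level, gave 1.25 (SE 0.54, unadjusted p = 0.0625 in limma), and the mean of both gave 0.60.

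Among the members the dynein-2 motor was read by its heavy chain and its light intermediate chain. The 95% intervals of both also lay within 2-fold. The heavy chain gene Dync2h1 read 8.36, 8.18 and 8.38 in the swap arrays, against 8.19, 7.88 and 8.13 in the control arrays, a difference of 0.24 (95% interval -0.30 to 0.78). Dync2li1 read 8.48, 8.13 and 8.06 in swap, against 8.49, 8.05 and 8.02 in control arrays. Its difference of 0.03 (95% interval -0.60 to 0.67) was small beside its spread, and in both genotypes array 1 was the highest. The intermediate chain genes Wdr34 and Wdr60, which were not members, differed by -0.26 and -0.25. The 95% interval of Wdr60, -1.32 to 0.82, reached past 2-fold.

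Among the members, 6 subunits read the BBSome, a coat that moves membrane proteins out of the cilium. Their differences ran from -0.31 to 0.17, and the groups overlapped in each. Bbs9 read 7.77, 7.50 and 8.06 in the swap arrays, against 7.74, 8.09 and 8.44 in the control arrays (difference -0.31, SE 0.29). Bbs1, the subunit that contacts the GTPase Arl6, read 8.03, 7.29 and 7.36 in swap, against 7.79, 7.23 and 8.44 in control arrays (difference -0.26, SE 0.40). Bbs4 read 8.78, 8.95 and 8.96 in swap, against 8.76, 8.82 and 8.62 in control arrays (difference 0.17, SE 0.21). Its 4 probe sets did not share a direction and gave -0.64 to 0.31. The remaining members Bbs5, Bbs2 and Bbs7 differed by 0.13, -0.10 and -0.05, each with a 95% interval within 2-fold. Bbip1 and Ttc8, subunits under other symbols, were not members. Bbip1 read 13.52, 13.84 and 13.84 in swap, against 13.92, 14.03 and 13.87 in control arrays, without overlap (difference -0.21, SE 0.22). The Ttc8 groups overlapped (difference 0.24, SE 0.33).

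The chaperonin-like members Bbs10 and Bbs12, which help the BBSome assemble, were lower on every swap array without passing the test. Bbs10 read 6.35, 6.12 and 6.81 in the swap arrays, against 7.09, 7.12 and 6.90 in the control arrays. Its difference was -0.61 (SE 0.26, unadjusted p = 0.0626, adjusted p = 1.00 in limma), but its other probe set gave 0.16. Bbs12 read 8.03, 7.64 and 8.06 in swap, against 8.24, 8.21 and 8.30 in control arrays, a difference of -0.34 (SE 0.23, unadjusted p = 0.187 in limma). Swap array 2 was the lowest for both genes, and without it the differences were -0.45 for Bbs10 and -0.20 for Bbs12.

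The MKS and tectonic complex of the transition zone held 10 members, 3 above 0 and 7 below, with a median difference of -0.07. B9d1, one of 3 B9-domain proteins of the complex, had its smallest p. It read 7.62, 8.15 and 7.95 in the swap arrays, against 8.66, 8.73 and 8.52 in the control arrays, with no overlap. The difference was -0.73 (SE 0.24, 95% interval -1.32 to -0.14; unadjusted p = 0.0236, adjusted p = 1.00 in limma), and it was -0.59 without swap array 1.

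The B9-domain partners of B9d1 did not share that separation. B9d2 read 6.37, 7.09 and 7.44 in the swap arrays, against 7.47, 7.41 and 7.58 in the control arrays (difference -0.52, SE 0.33, and -0.22 without swap array 1). Mks1 differed by 0.19 (95% interval -0.38 to 0.75). Cc2d2a, a membrane-linked C2-domain protein of the complex, read 8.81, 8.66 and 8.60 in swap, against 8.97, 8.96 and 8.90 in control arrays. Its groups did not overlap, with a difference of -0.26 (SE 0.20, unadjusted p = 0.254 in limma).

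Cep290, the protein that bridges axoneme and membrane in the transition zone, read 8.89, 8.37 and 8.58 in the swap arrays, against 7.89, 8.31 and 8.42 in the control arrays. Its groups overlapped and its difference of 0.41 (SE 0.27) was 0.11 without both arrays numbered 1. Among the tectonics, which are secreted or membrane proteins of the complex, Tctn1 and Tctn2 differed by -0.07 and -0.06. Tctn3 was read by 3 probe sets. The 2 of nearly equal mean (8.33 each) gave -0.68 for the chosen one and -0.16 for the next, and the dimmest gave -1.11. The chosen one gave -0.28 without swap array 1 and -1.04 without swap array 3. Ahi1, the Joubert syndrome gene, was steady at 11.24, 11.38 and 11.28 in the swap arrays, against 11.21, 11.41 and 11.39 in the control arrays. Tmem67 stood below the median level with a difference of 0.02 and a 95% interval of -1.04 to 1.07.

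Nphp4, a scaffold of the neighbouring nephrocystin module, was the only nephrocystin among the members. It read 7.96, 8.38 and 6.67 in the swap arrays, against 7.73, 7.67 and 6.94 in the control arrays, and array 3 was the lowest in both genotypes. The difference was 0.22 (95% interval -1.06 to 1.50). Its dimmer probe set, with a mean log2 intensity of 5.45, went the other way without overlap, at 5.60, 3.82 and 3.46 in swap, against 6.57, 6.81 and 6.45 in control arrays. That difference was -2.32 (SE 0.59, unadjusted p = 0.00834, adjusted p = 0.869 in limma). Invs, Iqcb1 and Nek8, nephrocystin genes under other symbols that were not members, differed by 0.09, 0.33 and -0.13, with overlapping groups.

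**Figure D3:**
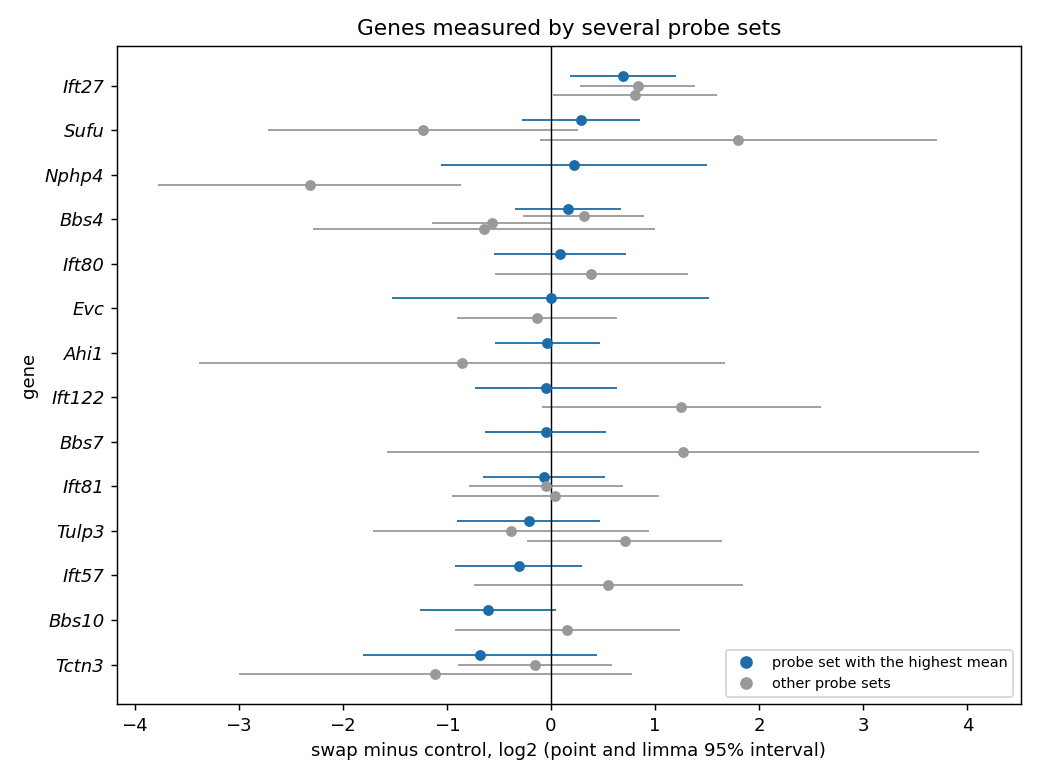
Swap minus control difference (log2) with its 95% interval from limma for every probe set of the 14 cilium genes that have more than 1; blue marks the probe set with the highest mean and grey the others. All 3 probe sets of Ift27 lie above 0, at 0.69 to 0.83, while those of Sufu, Nphp4 and Bbs4 point both ways.

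Agreement between probe sets was limited. Of the 14 genes with more than 1 probe set, 5 had all their differences on one side of 0: Ift27, Ift80, Evc, Ahi1 and Tctn3. For Sufu the dimmer probe sets gave -1.23 and 1.80, against 0.29 for the chosen one.

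Tulp3, the Tubby-like protein that hands receptors to IFT-A, read 9.70, 10.42 and 10.40 in the swap arrays, against 10.33, 10.43 and 10.41 in the control arrays. Swap array 1 alone lay low, and the difference of -0.22 was 0.02 without it. Tulp1, known from photoreceptors, read 3.73, 6.08 and 2.60 in swap, against 3.45, 3.26 and 4.78 in control arrays (difference 0.31, SE 0.96). Tulp2 read 6.10, 6.64 and 6.24 in swap, against 6.48, 6.02 and 6.47 in control arrays (difference 0.00). Both lay below the median level, and at that level the arrays could not resolve Tulp1 within 2-fold.

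The last members act at the basal body or pass on the Hedgehog signal. Sufu, which holds Gli factors in check, read 10.22, 9.90 and 9.90 in the swap arrays, against 9.88, 9.54 and 9.74 in the control arrays. The groups missed each other by a narrow margin, with a difference of 0.29 (SE 0.23, 95% interval -0.28 to 0.85; unadjusted p = 0.257 in limma). Ofd1, a centriolar protein, read 9.20, 8.45 and 8.61 in swap, against 9.41, 8.99 and 8.46 in control arrays (difference -0.20, SE 0.36). Evc2 and Evc form a complex near the ciliary base that relays the signal of Smoothened. Evc2 read 7.63, 7.72 and 7.93 in swap, against 7.55, 7.79 and 7.60 in control arrays (difference 0.12, SE 0.22). Evc read 6.65, 6.66 and 5.97 in swap, against 7.75, 5.82 and 5.72 in control arrays, where control array 1 stood alone, and its difference of 0.00 became 0.66 without that array.

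The spread within a genotype limited what could be seen, but not alone. limma draws the variance of each gene towards a value common to all probe sets. Ift74, with a pooled SD of 0.06 within genotypes, thus had an SE of 0.20. The pooled SD within genotypes had a median of 0.25 over the 42 genes. It was under 0.1 for Ift74, Cc2d2a, Ahi1, Ift46 and Ift27, and over 0.5 for 8 genes: Bbs1, Tmem67, Tctn3, Nphp4, Ift52, Evc, Ift172 and Tulp1. Swap array 1 deviated most, with a median absolute deviation of 0.27 from each gene's mean over 6 arrays, against 0.15 and 0.18 in the other swap arrays and 0.17 to 0.19 in the control arrays. On that array 8 members were the lowest of the 6: Ift88, Ift57, Bbs2, B9d1, B9d2, Tctn3, Tmem67 and Tulp3. Another 6 were the highest there. Control array 2 also held the lowest value of 8 members, and control array 1, with the fewest, that of 5. Swap array 1 was also the array with the highest 3′ to 5′ ratio, and the part of RNA quality in these values was not tested.

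**Figure D4:**
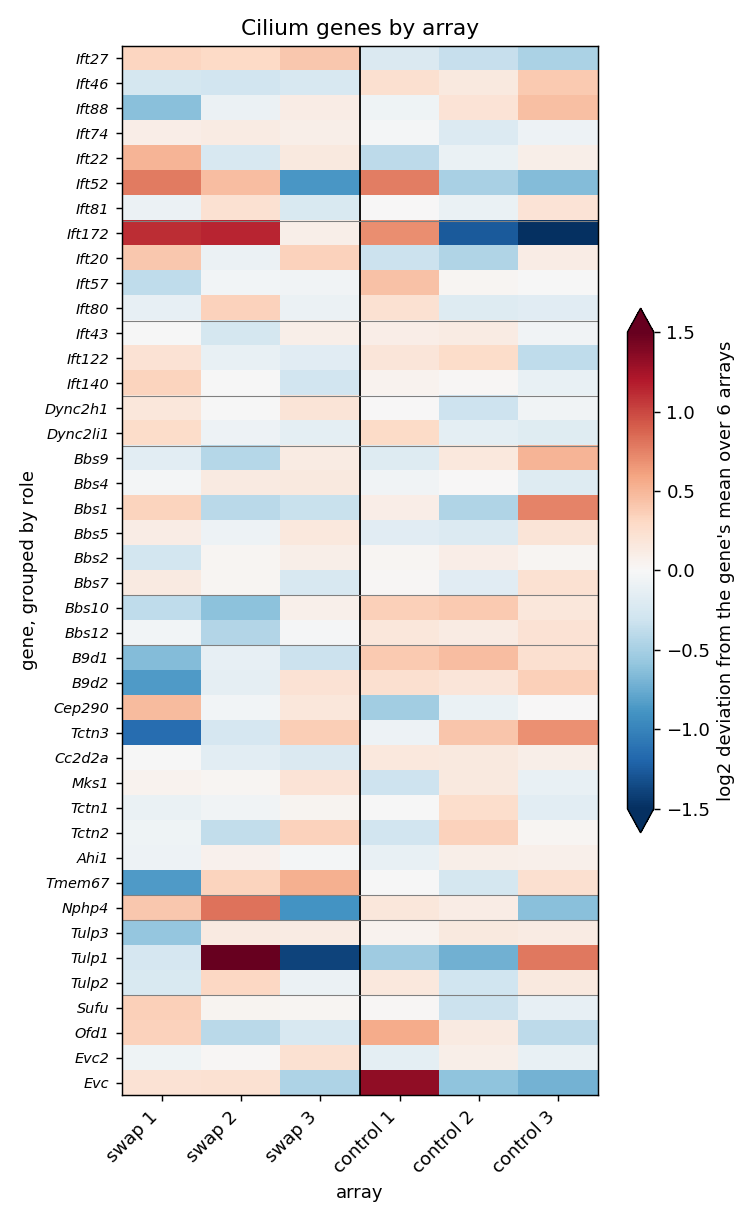
Deviation of each cilium gene from its own mean over the 6 arrays (log2, colour scale from -1.5 to 1.5), with swap arrays left and control arrays right of the black line and genes grouped by role. Rows of 1 colour on each side of the line, as for Ift27, Ift46 and B9d1, are few, and swap array 1 holds several dark blue cells in the transition zone rows.

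Over all members the arrays did not sort by genotype. The mean log2 intensity over the 42 genes was 8.47, 8.54 and 8.44 in swap arrays 1, 2 and 3, against 8.57, 8.43 and 8.48 in control arrays 1, 2 and 3. The highest and the lowest of these 6 values both belonged to the control group. Over 11 branchial mesenchyme markers the mean log2 intensity varied more, from 8.17 to 8.80 in swap and from 7.72 to 9.01 in control arrays. Their summed intensity ranged from 3919 to 7012 in the swap arrays and from 3095 to 9695 in the control arrays. Over 11 cycling cell markers the sum ranged from 23497 to 30837 in the swap arrays and from 23310 to 31977 in the control arrays. Over 8 erythroid markers it ranged from 15716 to 31823 in swap and from 21076 to 33842 in control arrays. All 8 were lower in swap, with 0 called (smallest unadjusted p = 0.00466, smallest adjusted p = 0.771 in limma). Control array 1, where Ift172 and Evc were high, had the lowest sums for macrophages and mesenchyme of the 6 arrays and the highest for cycling cells. Their part in those values was not tested.

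The members were set beside 8 other lists of cilium-related genes, 124 genes in all that were not members. The 124 include Cdo1, which entered through a mistaken symbol match. limma called 0 of the 124, and 6 had an unadjusted p under 0.05, beside 3.63% of all genes. All 6 were higher in swap, beside 1.69% of all genes, and they were Tmem138, Myb, Foxj1, Rabl2, Adcy3 and Gli1. The list medians lay between -0.10 and 0.14, beside -0.02 for the members.

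Further IFT, BBS and dynein-2 subunits under other symbols (23 measured) had a median of -0.10. Rabl2, a GTPase that binds IFT-B, read 9.66, 9.03 and 8.51 in swap, against 8.16, 8.12 and 8.13 in control arrays, and the difference was 0.93 (SE 0.34, unadjusted p = 0.0348, adjusted p = 1.00 in limma). Tctex1d4, a dynein light chain relative, differed by -0.71 (SE 0.46). Kinesin-2 and Kif7 (6 measured) had a median of -0.01. The motor subunits Kif3b and Kif3a differed by 0.38 (SE 0.31) and 0.20 (SE 0.25), and Kif7, a ciliary regulator of Gli factors, by -0.01 (95% interval -0.88 to 0.85).

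In the remaining transition zone list (15 measured, median 0.09) the smallest p of any cilium-related gene belonged to Tmem138, a membrane protein of a Joubert syndrome locus. It read 7.05, 7.09 and 7.16 in swap, against 6.24, 5.74 and 6.20 in control arrays. The groups did not overlap and the difference was 1.05 (SE 0.24, 95% interval 0.46 to 1.63; unadjusted p = 0.00493, adjusted p = 0.778 in limma), with a mean below the median level. Tmem17 differed by 0.43. Among the basal body and ciliogenesis genes (30 measured, median 0.00) Cep164, a distal appendage protein, differed by 0.48 (SE 0.26), Cep89 by -0.66 (SE 0.38), Arl3 by 0.17 and the phosphatase Inpp5e by -0.19.

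The list of genes that read or pass on the Hedgehog signal at the cilium (12 measured) had a median of 0.01. Cdo1, which is not a Hedgehog gene, is among the 12, with a difference of -0.10. It was taken for the listed co-receptor Cdo through a shared synonym, and that co-receptor was not read. Ptch1, the receptor and a target of the pathway, stood at 13.87 ± 0.14 in swap and 13.89 ± 0.05 in control arrays (SD, n = 3 each), a difference of -0.02 with a 95% interval of -0.53 to 0.49. Smo differed by 0.26, and Gpr161, a ciliary receptor that restrains the pathway, by -0.14. Gli1, another target, read 6.45, 7.02 and 5.02 in swap, against 4.13, 5.46 and 3.33 in control arrays. Its groups overlapped, and the difference was 1.86 (SE 0.74, unadjusted p = 0.0482, adjusted p = 1.00 in limma) below the median level.

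Among the ciliary receptors and the cyclase (8 measured, median 0.13), Adcy3, the adenylyl cyclase of neuronal cilia, read 7.48, 7.84 and 7.81 in swap, against 6.22, 7.09 and 7.14 in control arrays. The difference was 0.89 (SE 0.33, unadjusted p = 0.0367, adjusted p = 1.00 in limma), from an x_at probe set. Npy2r, a neuropeptide receptor, differed by 0.88 below the median level. The largest difference of the list was that of Drd1, a dopamine receptor named after its values were seen, at -1.49 (SE 0.74, unadjusted p = 0.0918 in limma), also below the median level. Foxj1, the switch for motile cilia, read 6.29, 6.77 and 5.97 in swap, against 3.34, 4.24 and 5.85 in control arrays, a difference of 1.87 (SE 0.67, adjusted p = 1.00 in limma) below the median level. In the same list (8 measured, median 0.09) Myb, a factor of dividing and of multiciliated cells, differed by 0.85 (SE 0.26), also from an x_at probe set. The motile cilium genes (23 measured, 14 below the median level) had a median of 0.14. Their mean log2 intensity was 6.91, 6.99 and 7.18 in swap arrays 1, 2 and 3, against 6.82, 7.12 and 6.81 in the control arrays, with overlap. Cfap126 differed by 0.66 (SE 0.30) and Rsph9 by -0.88 (SE 0.40).

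**Figure D5:**
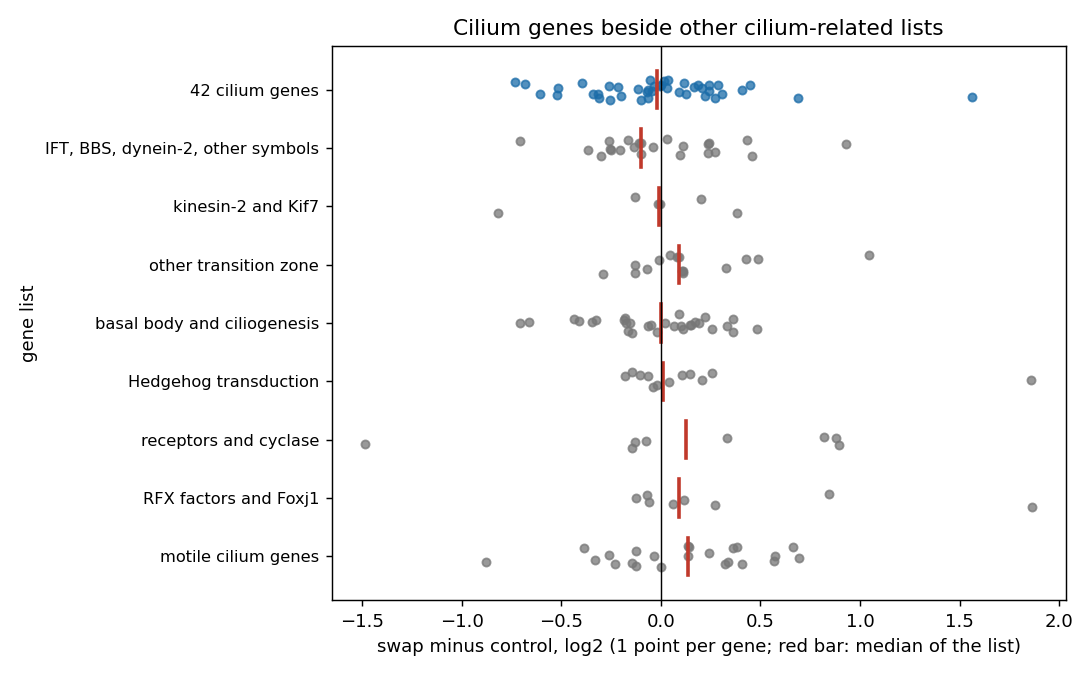
Swap minus control difference (log2) of each gene in the 42 cilium genes (blue) and in 8 other cilium-related lists (grey), 1 point per gene with the list median as a red bar. All medians lie between -0.10 and 0.14, and the points more than 1 from 0 are Ift172, Gli1, Foxj1, Tmem138 and Drd1.

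Members with and without an X-box match had medians near 0. The 13 with a match had a median difference of -0.05 and a range of -0.68 to 0.27, and 0 had an unadjusted p under 0.05 in limma. The 24 with a promoter window but no match had a median of 0.00 and a range of -0.73 to 1.56. Ift27, Ift46 and B9d1 were all among the genes without a match.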

How the data were processed

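The values deposited by the authors are linear intensities of 45101 probe sets on Affymetrix whole-genome mouse arrays. Per the submitters' processing notes they were made with affy; version and summary method: not given in the sources used here. Every array's 2% trimmed mean is 500, which is a common scale set before deposit. Without the 64 array control probe sets, 45037 were converted to log2 and fitted together with limma 3.58.1 (lmFit, eBayes) in R 4.3.3. The model compared swap with control, and two-sided p-values were adjusted by the Benjamini-Hochberg method over all 45037, with a threshold of 0.05. The fit was tested on simulated data, where the mean estimates had to lie close to the differences put in. No condition was set on how many of those differences were called. The platform annotation gave 1 symbol to 34958 probe sets and several to 932, which were not named, as were those it does not list. All 42 members matched the RefSeq gene table by Entrez identifier. A mean level is the mean of the log2 values over the 6 arrays.

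Replicates are independent and biological, per the series design. The replicate numbers were not treated as pairs: deviations of same-numbered arrays from their genotype means correlated at 0.065, 0.018 and 0.057. Members, role lists, context lists and alternatives were chosen with earlier results of these data known. The naming rule gave values by array to the 3 members with the smallest p per role and to members whose groups do not overlap. In context lists it named the 2 smallest p and a few key genes. Evc, Ahi1, Ift52 and further members were added after their values were seen. So were context genes such as Mkks, Bbip1, Ttc8, Invs, Iqcb1, Nek8, Wdr34 and Wdr60. Alternatives were the replicate block, a level filter, other normalizations, an offset, other priors and weights, other probe set rules, and leaving out arrays. Batches could not be tested, since no scan or hybridization dates were used here.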

Additional observations from a re-analysis of the deposited data

How the results depend on the processing

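limma called 0 of the 42 members and 0 features of the array under each of the alternatives run, the threshold of 0.1 included. Between 1 and 4 members had an unadjusted p under 0.05, against 3 as reported, with 1 array left out accounting for the counts of 1. The replicate block cannot change a difference in this balanced design, so the median difference of the members stayed at -0.0197. With that block the smallest adjusted p of a member in limma was 0.940. The median ran from -0.07 to 0.03 with 1 array left out, and it was 0.053 over the 14 genes when the probe set with the second highest mean stood for each, fewer genes than the full set. Of 681 values of single members 630 kept their direction and 51 turned, all in differences that had not passed. The 630 include values that could not turn. The replicate block, the level filter, the other prior and the fit of 1 probe set per gene leave every difference as it was. So does the mean over probe sets for a gene with only 1. Of the 42 members 18 turned under none of the alternatives, Ift27, Ift46 and B9d1 among them. For 18 of the 42 genes the 95% interval reaches past 2-fold.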
